A study of Mus musculus with 18 samples.

Results

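The enzymes of glycolysis and of the TCA cycle were described in RNA-seq libraries of cones sorted from wildtype mouse retinas. The list held 44 genes of the 54532 in each count table: 20 of glycolysis, 2 of lactate dehydrogenase, 9 of the pyruvate dehydrogenase complex with its kinases and phosphatase, and 13 of the TCA cycle. The members were given by symbol, and all 44 symbols were found. Aldoa had 2 gene identifiers under its symbol, and only the first was used. The other entered neither the level of Aldoa nor the search for copies described below. The 18 libraries formed 4 groups. At postnatal day 21, 6 control and 6 Txnip retinas were from BALB/c mice. The C57BL/6J retinas, 3 of each kind, were from postnatal day 35. All retinas had received, at postnatal day 0, the vector AAV8-SynP136-H2BGFP, which marks cone nuclei with a green fluorescent histone for sorting. Txnip retinas had also received AAV8-RedO-Txnip, in which the human red opsin promoter drives Txnip in cones, and controls received no other vector in its place. BALB/c is an albino strain, and the C57BL/6J strain is known to carry a null mutation of Nnt, a mitochondrial enzyme outside the list. Each library came from 1 retina, and the labels do not say which retinas share a mouse, so p-values measure the spread between these libraries. Strain and age went together, and the file headers name the libraries of each strain as a separate set, so these parts cannot be told apart, and the contrast is called strain and age throughout.

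Glycolysis splits glucose into pyruvate in the cytosol. Lactate dehydrogenase converts pyruvate to lactate and back, while the pyruvate dehydrogenase complex turns it into acetyl-CoA, which the TCA cycle oxidizes in mitochondria, and the pyruvate dehydrogenase kinases switch that complex off. Photoreceptors are known for making much lactate even when oxygen is present, and Txnip is known as an inhibitor of glucose uptake. The genes of this route were therefore examined, at the level of RNA only. Enzyme protein and the use of fuel were not measured in these libraries. Several steps are served by alternative isozymes, which were compared with each other only per length, as CPM (counts scaled to the TMM-normalized library size) divided by the exonic length of the gene in kilobases (CPM per kb).

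The libraries held from 647712 to 5172156 counts. The members took 1.40 to 1.69% of the counts in BALB/c and 1.47 to 2.56% in C57BL/6J libraries. The 12 cone markers were present in every library and together took 3.77 to 9.95% of counts. Rod markers other than Sag, which cones also express, took 0.108 to 0.280% except in C57BL/6J control replicate 1 (1.39%) and C57BL/6J Txnip replicate 2 (0.956%). These 2 are called the rod-rich libraries. They also held the 2 highest values of 5 of the 7 Müller glia markers and of 4 of the 6 bipolar cell markers. The same held for 3 of the 4 endothelial markers, at low counts. The ribosomal RNA locus took 6.00 to 16.3% of counts in BALB/c libraries and 3.27 to 27.5% in C57BL/6J libraries. The transferred gene followed the labels, at 0 to 1.48 CPM in BALB/c controls, 1027 to 1414 CPM in BALB/c Txnip libraries, 0 to 0.360 CPM in C57BL/6J controls and 821 to 1969 CPM in C57BL/6J Txnip libraries.

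Promoter sequences of members whose levels are described below are shown first, because the hypoxia-inducible factors (HIFs), known activators of glycolytic genes, bind the core ACGTG. Each is the 250 bases before a RefSeq transcription start (GRCm38.p6), 5′ to 3′ on the strand of the gene, with matches to ACGTG on either strand in capitals.
Hk2, chr6:82774455-82774704, minus strand: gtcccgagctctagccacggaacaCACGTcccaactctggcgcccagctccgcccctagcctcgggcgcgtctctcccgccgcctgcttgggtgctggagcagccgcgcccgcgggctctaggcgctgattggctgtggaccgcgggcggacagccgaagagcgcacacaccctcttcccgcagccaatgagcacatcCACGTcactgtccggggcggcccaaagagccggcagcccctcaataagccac
Pgk1, chrX:106186850-106187099, plus strand: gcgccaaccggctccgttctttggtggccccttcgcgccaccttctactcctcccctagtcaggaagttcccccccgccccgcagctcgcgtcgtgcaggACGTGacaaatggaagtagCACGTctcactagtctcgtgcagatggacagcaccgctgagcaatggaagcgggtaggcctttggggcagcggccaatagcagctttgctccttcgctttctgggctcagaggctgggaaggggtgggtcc
Ldha, chr7:46845554-46845803, plus strand: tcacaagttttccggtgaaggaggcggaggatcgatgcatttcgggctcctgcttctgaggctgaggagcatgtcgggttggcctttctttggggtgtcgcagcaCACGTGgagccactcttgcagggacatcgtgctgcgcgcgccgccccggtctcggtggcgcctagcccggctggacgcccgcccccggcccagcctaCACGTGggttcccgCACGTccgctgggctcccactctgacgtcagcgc
Eno1, chr4:150236458-150236707, plus strand: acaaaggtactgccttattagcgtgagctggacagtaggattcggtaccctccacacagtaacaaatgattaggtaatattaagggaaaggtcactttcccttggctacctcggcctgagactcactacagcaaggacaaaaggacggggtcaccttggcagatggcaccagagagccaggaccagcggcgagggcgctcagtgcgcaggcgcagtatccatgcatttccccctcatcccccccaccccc
The Hk2 and Pgk1 windows each held 2 matches. The first Ldha window held 5, since both of its CACGTG runs (the E-box) read as ACGTG on either strand. The second Ldha window and all 3 Eno1 windows held 0, as did those of Gpi1, Pfkl, Pfkp, Aldoc and Tpi1. RefSeq gave a window for 42 of the 44 members, 66 windows in all. ACGTG was in 24 of these 66 (36.4%) and in 16.6% of all 32851 windows, which are not independent since starts of a gene overlap. Ogdh had the most windows of any member and held ACGTG in each of them. Counted by gene, 15 of the 42 members held ACGTG in at least 1 window, against 18.5% of all genes. These were 9 of the 22 of glycolysis and lactate dehydrogenase and 6 of the 20 others. More windows give more chances of a match, and the 42 members had 66 windows while all 27025 genes had 32851. CACGTG was in 12.1% of member windows and 6.02% of all windows, and TAATCC, the core read by the photoreceptor factor CRX, in 12.1% and 6.25%. The site TCAAGGTCA, read by the ERR factors, and the palindromic NRF1 motif were in 0 of the 66 member windows, and in 0.387% and 0.782% of all windows.

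The 5 most abundant members per length were Aldoa, Ldha, Pkm, Mdh1 and Tpi1. Aldoa, the aldolase that splits fructose 1,6-bisphosphate, had a mean of 1003 CPM per kb over the 4 groups weighted equally and ranked 27 among the 14751 genes tested. Ldha followed at 679, Pkm, the pyruvate kinase gene, at 538, Mdh1, the cytosolic malate dehydrogenase, at 309, and Tpi1, triose phosphate isomerase, at 285 CPM per kb. The most abundant members of the TCA cycle inside mitochondria were Mdh2 at 116 and Idh3a at 108 CPM per kb. At the other end lay Pdk1 (1.28 CPM per kb), Pfkfb3 (0.852), Pfkfb1 (0.589), Suclg2 (0.348) and Pdk4 (0.0477). Of the 44 members, 42 passed the filter on low counts in the fit of all groups and 40 in the fit of each strain. Pdk4, with at most 2 counts, and Suclg2, with at most 16, passed in no fit, and Pfkfb1 and Pgam2 passed only in the fit of all groups.

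**Figure D1:**
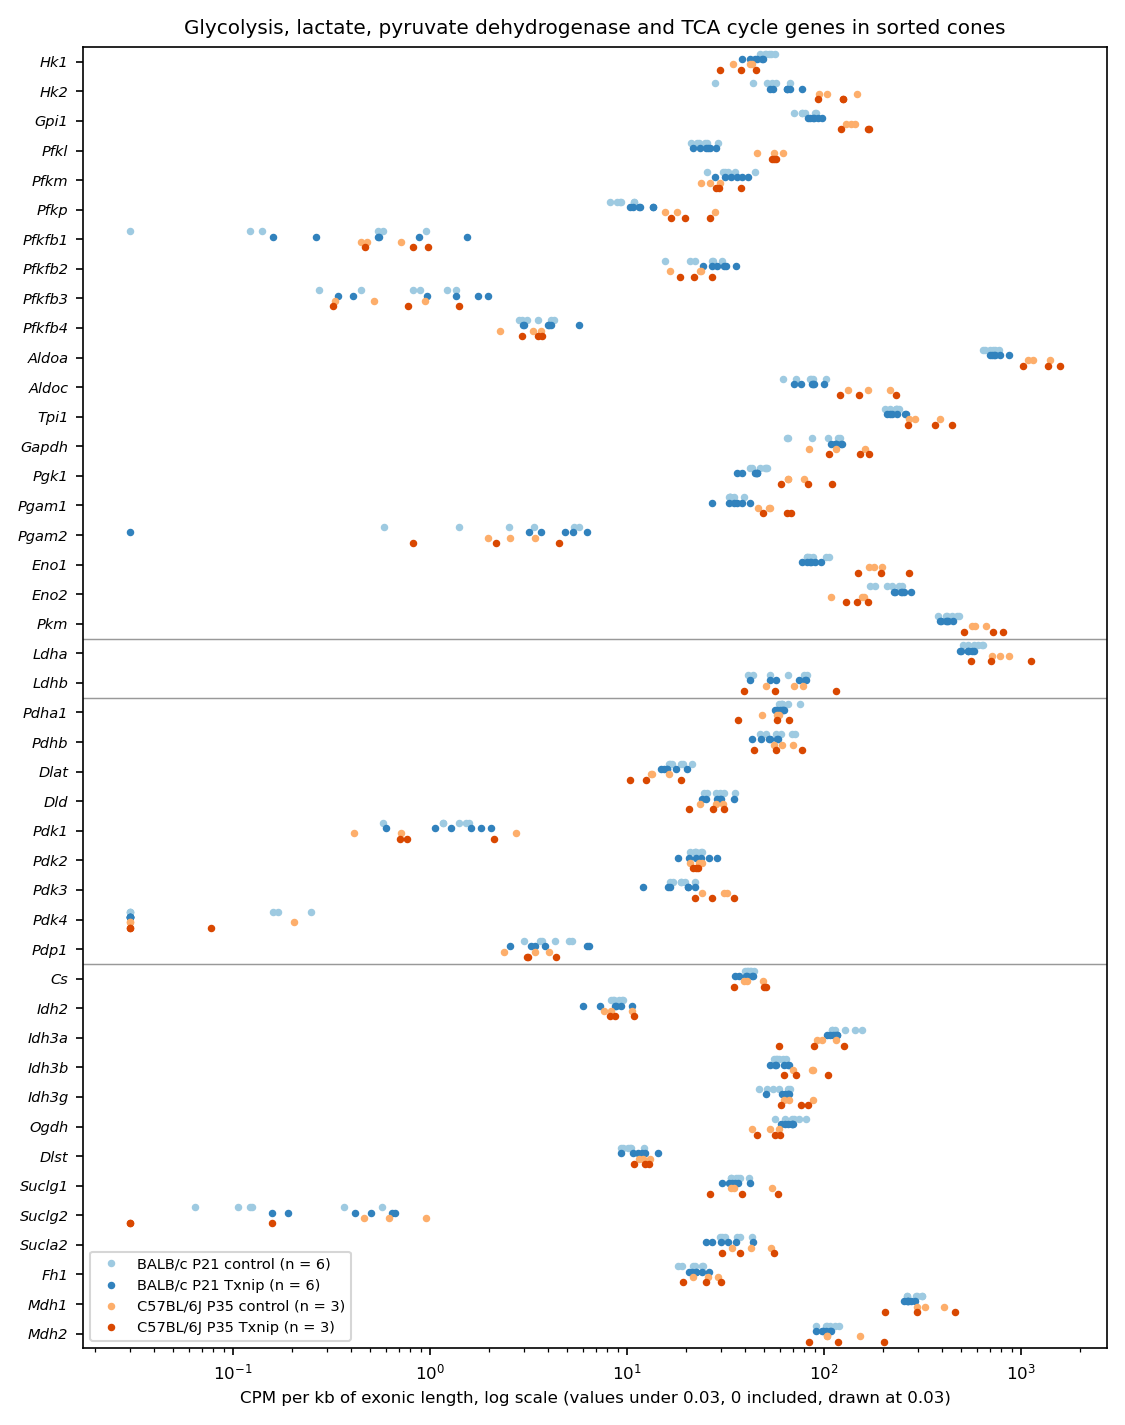
Level of each of the 44 members in the 4 groups, in CPM per kb of exonic length on a log axis, with 1 point per library. Members are grouped by pathway, from Aldoa near 1003 CPM per kb to Pdk4 at 0.0477.

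For each step with alternative isozymes, the share of each isozyme in the summed CPM per kb of the step was computed per library. At 6 of the 9 such steps the same gene was highest in at least 16 of the 18 libraries. Aldoa held 86.6 to 91.2% of aldolase against Aldoc, Ldha held 86.9 to 93.6% of lactate dehydrogenase against Ldhb, Pgam1 held 85.3 to 100% of phosphoglycerate mutase against the muscle form Pgam2, and Pfkfb2 held 76.7 to 88.0% of the enzymes that make and break fructose 2,6-bisphosphate. Sucla2, the ADP-forming beta subunit of succinyl-CoA ligase, held 97.4 to 100% against Suclg2, the GDP-forming one. Hk2, the hexokinase that is otherwise known from muscle, fat and tumours, was higher per length than Hk1 in 16 libraries. Its mean share was 48.4% ± 7.34 (SD, n = 6) in BALB/c controls, 58.6% ± 3.53 (n = 6) in BALB/c Txnip, 73.5% ± 6.45 (n = 3) in C57BL/6J controls and 75.1% ± 5.09 (n = 3) in C57BL/6J Txnip libraries.

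At the other 3 steps the highest isozyme was not the same gene in all groups. Enolase was mostly Eno2, the neuronal form, in all 12 BALB/c libraries, at 69.8% ± 4.75 (SD, n = 6) in controls and 74.1% ± 1.5 (n = 6) in Txnip libraries, and mostly Eno1, the ubiquitous form, in all 6 C57BL/6J libraries, where the share of Eno2 was 43.4% ± 5.40 (n = 3) and 42.6% ± 6.38 (n = 3). Among the phosphofructokinases Pfkm was highest in the BALB/c libraries and Pfkl in all 6 C57BL/6J libraries, with a Pfkl share of 36.4% ± 5.08 and 35.1% ± 3.22 in BALB/c and 53.5% ± 3.55 and 51.4% ± 2.95 in C57BL/6J control and Txnip libraries. Pdk3 and Pdk2 were close at the pyruvate dehydrogenase kinases: Pdk3 was highest in 6 of 18 libraries, 5 of them C57BL/6J, and its mean share was 44.01, 42.1, 54.6 and 53.8% in the 4 groups in the same order. These shares depend on the length used. With the length of the longest protein-coding transcript in place of the exonic length, Hk2 was highest in 7 of 18 libraries and Pfkl in 12, and the highest on average became Eno1 at enolase and Pdk2 at the kinases. Under that length Eno2 was still highest in the 12 BALB/c libraries and in 0 of the 6 C57BL/6J ones. The log2 differences of single genes between groups, given below, do not depend on the length.

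**Figure D2:**
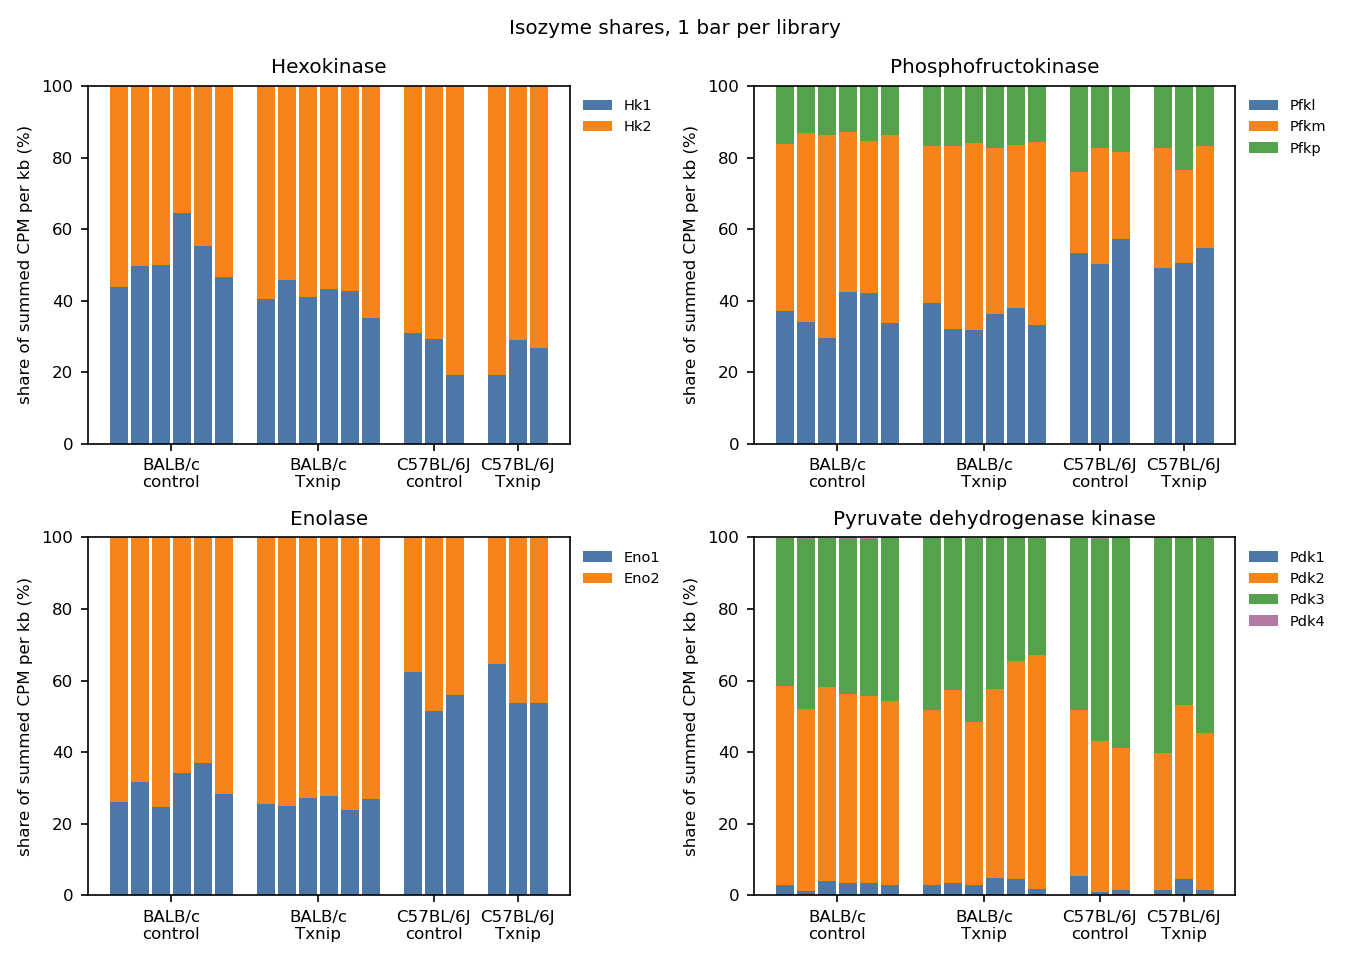
Share of each isozyme in the summed CPM per kb of its step, in percent, with 1 bar per library ordered by group. The steps shown are hexokinase, phosphofructokinase, enolase and pyruvate dehydrogenase kinase. Eno2 holds 63.2 to 76.3% of enolase in BALB/c libraries and 35.3 to 48.4% in C57BL/6J ones.

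The strain and age contrast asks how the enzymes of C57BL/6J cones at postnatal day 35 differ from those of BALB/c cones at postnatal day 21. At most steps of glycolysis a member was higher in the C57BL/6J libraries, and the other pathways differed at few members. In control cones 15 of 42 members tested passed an adjusted p of 0.05 (35.7%), 13 higher and 2 lower, where 17.5% of all genes tested passed, 8.03% higher and 9.52% lower. In Txnip cones, which are other libraries of the same strains and ages, 15 of 42 passed, 14 higher and 1 lower, against 17.6% of all genes, 8.24% higher and 9.38% lower. At an unadjusted p under 0.05 there were 19 of 42 members in control cones (against 31.1% of all genes) and 18 of 42 in Txnip cones (against 30.2%). At the adjusted p of 0.05, 14 passed in both contrasts, 13 higher and 1 lower. Ogdh passed only in control and Ldha only in Txnip cones, and the difference between those contrasts is tested with the effect of Txnip below. Of the 20 glycolytic genes 11 were higher and 1 lower in each contrast, with a median log2 difference of 0.47 in control and 0.67 in Txnip cones, beside −0.00116 and 0.05 over all genes tested. A member passed in the higher direction at 9 of the 11 glycolytic steps in both contrasts, the exceptions being Gapdh and the enzymes of fructose 2,6-bisphosphate. Enolase, 1 of these 9 steps, was mixed, with Eno1 higher and Eno2 lower in both contrasts. Of 8 pyruvate dehydrogenase genes tested 1 was higher (median −0.04 and −0.15), and of 12 TCA cycle genes 1 was higher in each contrast and 1 lower in control cones (median 0.21 and 0.20). Without C57BL/6J control replicate 3, 9 of 42 members passed in control cones, with the calls of Tpi1, Pgk1, Pkm, Pdk3, Idh3b and Ogdh lost. Hk2, Gpi1, Pfkl, Pfkp, Aldoa, Aldoc, Pgam1 and Eno1 passed in both contrasts under all 29 alternative settings. In bulk libraries fewer cells of a type and less RNA per cell cannot be told apart, and CPM is a share of each library.

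Cell type markers moved with the same contrast. All 12 cone markers lay above 0 in both contrasts, with 5 called higher in each and a median log2 difference of 0.40 and 0.41. Ganglion cell markers took 0.0370 to 0.111% of counts in BALB/c and 0.00232 to 0.0101% in C57BL/6J libraries. Müller glia markers took 0.0946 to 0.119% in BALB/c and 0.0357 to 0.116% in C57BL/6J libraries, a sum carried mostly by Clu, which was at 788 to 1086 counts in 1000000 in BALB/c and 286 to 538 in C57BL/6J libraries, while other markers of this list were highest in the rod-rich libraries. Amacrine cell markers took 0.0279 to 0.0513% in BALB/c and 0.0112 to 0.0359% in C57BL/6J libraries. Their part in the differences below was not tested. Without the rod-rich libraries, 15 members passed in control and 17 in Txnip cones.

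**Figure D3:**
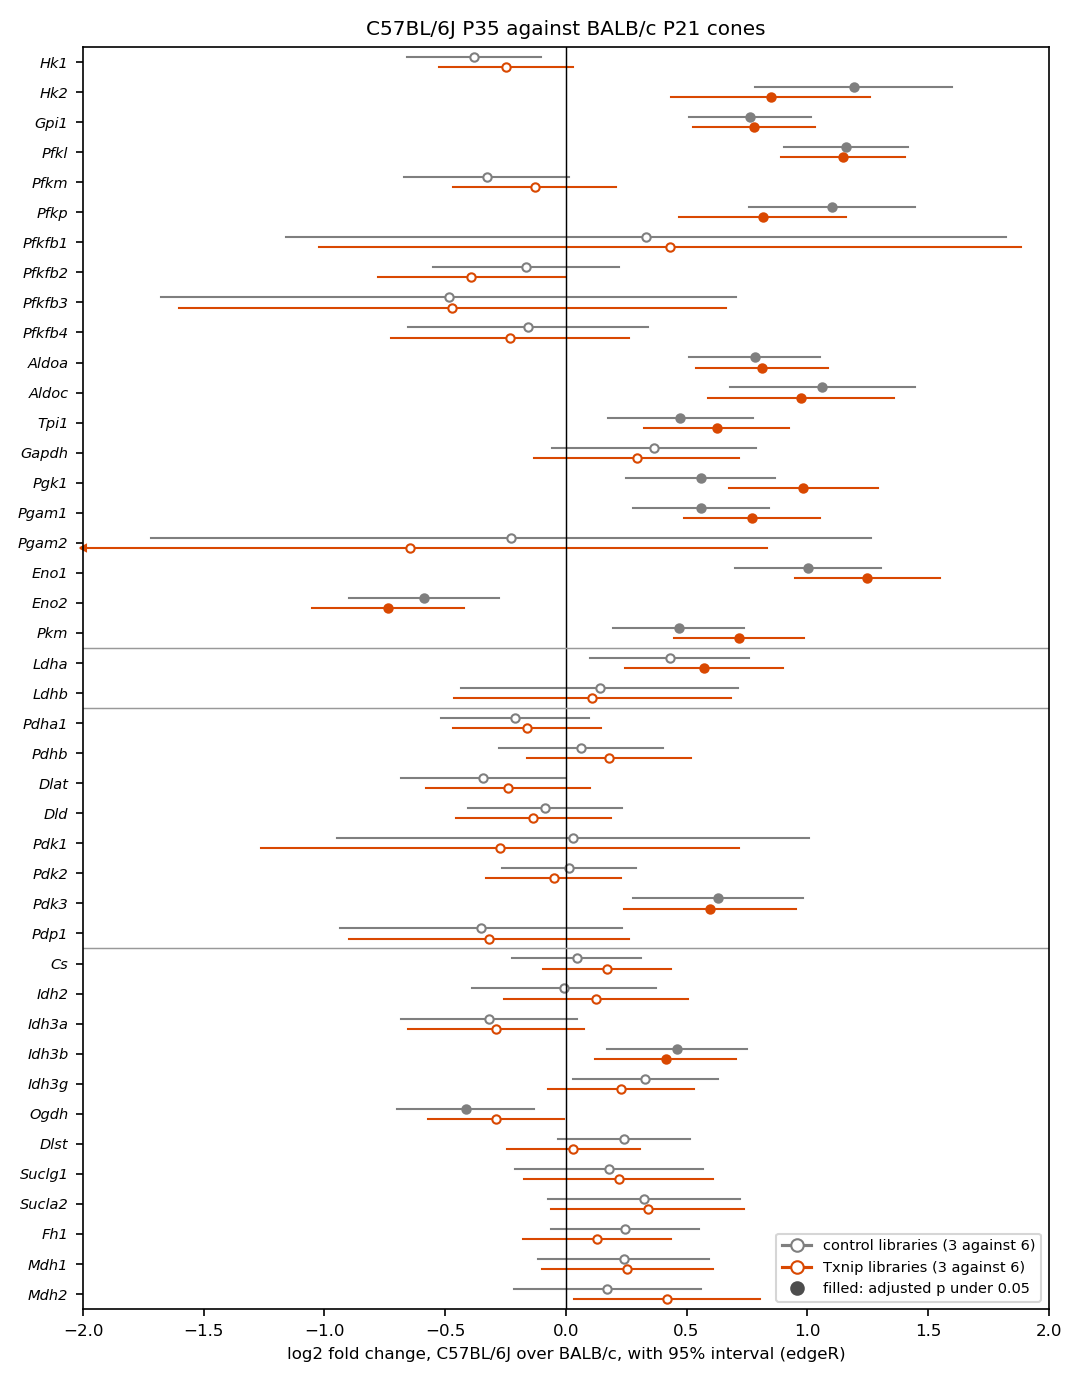
Log2 difference between C57BL/6J and BALB/c libraries for the 42 members tested, with its 95% interval from edgeR, in control and in Txnip cones. Hk2, Pfkl, Pfkp, Aldoc and Eno1 lie farthest to the right in control cones, Eno1, Pfkl and Pgk1 in Txnip cones, and Eno2 lies to the left of 0 in both contrasts.

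In control cones the largest difference of all members was that of Hk2, and in Txnip cones that of Eno1, or of Pfkl once the counts of near-identical copies, described below, were added to Eno1. Hexokinase phosphorylates glucose, and its isozyme Hk2 ran from 28.0 to 67.8 CPM per kb (median 53.0) in BALB/c controls and was 94.5, 104 and 148 in C57BL/6J controls. In Txnip cones Hk2 ran from 53.4 to 77.6 (median 65.1) in BALB/c and was 126, 94.1 and 125 CPM per kb in C57BL/6J. All 6 C57BL/6J libraries lay above all 12 BALB/c libraries. The log2 difference was 1.19 (SE 0.197, edgeR adjusted p = 0.000163) in control and 0.85 (SE 0.198, adjusted p = 0.00434) in Txnip cones. Hk1, the hexokinase of most neurons, went from 47.8 to 56.7 (median 52.1) CPM per kb in BALB/c controls to 42.4, 43.1 and 34.9 in C57BL/6J controls. In Txnip cones Hk1 was 38.5 to 49.5 (median 45.5) in BALB/c and 29.8, 38.1 and 45.4 CPM per kb in C57BL/6J. The control groups did not overlap while the Txnip groups did, and the Hk1 difference of −0.38 (SE 0.134, edgeR adjusted p = 0.0536) in controls and −0.25 (adjusted p = 0.216) in Txnip cones did not pass. In control cones the Hk1 difference passed in 15 of 29 alternative settings, DESeq2 and the DESeq2 size factors among them, with adjusted p from 0.0153 to 0.257 over all of them. Gpi1, which isomerizes glucose 6-phosphate, ran from 71.2 to 91.1 (median 78.9) in BALB/c controls and was 130.4, 138 and 145 CPM per kb in C57BL/6J controls. Its Txnip libraries were at 83.0 to 97.7 (median 88.9) and at 168, 122 and 171 CPM per kb. No Gpi1 values overlapped between the strains, with log2 differences of 0.76 (SE 0.122, edgeR adjusted p = 0.000119) and 0.78 (SE 0.122, adjusted p = 8.33e-05).

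Phosphofructokinase catalyses the main control step, and 2 of its 3 isozymes were higher in the C57BL/6J libraries. Pfkl, the liver form, ran from 21.1 to 29.2 (median 24.2) CPM per kb in BALB/c controls and was 62.4, 45.8 and 55.8 in C57BL/6J controls. Txnip libraries held 21.8 to 28.3 (median 25.5) in BALB/c and 55.7, 57.1 and 55.0 CPM per kb of Pfkl in C57BL/6J. The strains were separate in every library, and Pfkl had the smallest p of all members, with a log2 difference of 1.16 (SE 0.124, edgeR adjusted p = 6.34e-07) in control and 1.15 (SE 0.124, adjusted p = 7.86e-07) in Txnip cones. Pfkp, the platelet form, was 8.19 to 10.9 (median 9.32) in BALB/c controls and 28.0, 15.7 and 18.1 CPM per kb in C57BL/6J controls. In Txnip cones it was 10.4 to 13.6 (median 11.6) and 19.8, 26.6 and 16.9 CPM per kb. Pfkp too did not overlap, at 1.10 (SE 0.166, edgeR adjusted p = 6.04e-05) and 0.81 (SE 0.168, adjusted p = 0.00147), and its highest values were those of the rod-rich libraries. The muscle form Pfkm, at 25.7 to 44.9 CPM per kb in BALB/c and 23.7 to 29.9 in C57BL/6J controls, overlapped and did not pass (log2 difference −0.33, adjusted p = 0.18). Pfkfb2, whose product fructose 2,6-bisphosphate activates phosphofructokinase, was 15.7 to 30.6 (median 24.7) in BALB/c controls and 23.6, 23.99 and 16.7 CPM per kb in C57BL/6J controls. Its Txnip libraries were at 24.4 to 36.1 (median 29.9) and 18.7, 27.2 and 22.1 CPM per kb. The groups overlapped, with −0.17 (SE 0.185, edgeR adjusted p = 0.592) and −0.39 (SE 0.187, adjusted p = 0.161).

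Both aldolases were higher in the C57BL/6J libraries. Aldoa ran from 643 to 774 (median 713) CPM per kb in BALB/c controls and was 1085, 1159 and 1405 in C57BL/6J controls. In Txnip cones Aldoa was 697 to 870.2 (median 736) in BALB/c and 1594, 1028 and 1374 CPM per kb in C57BL/6J. The lowest C57BL/6J library lay above the highest BALB/c one in both contrasts, with log2 differences of 0.78 (SE 0.132, edgeR adjusted p = 0.000206) and 0.81 (SE 0.132, adjusted p = 0.000126). Aldoc, the brain form, was 62.1 to 103 (median 86.0) in BALB/c controls and 168, 133 and 217 CPM per kb in C57BL/6J controls. In Txnip cones Aldoc was at 70.8 to 101 (median 87.9) and 234, 121 and 151 CPM per kb. These did not overlap either, at 1.06 (SE 0.185, edgeR adjusted p = 0.000292) and 0.97 (SE 0.186, adjusted p = 0.000729). Tpi1, which interconverts the triose phosphates, was 206 to 241 (median 234) in BALB/c controls and 290.0, 271 and 389.8 CPM per kb in C57BL/6J controls. In Txnip cones Tpi1 was 209.6 to 262 (median 229) and 449.7, 269.6 and 367 CPM per kb. Tpi1 was separate in both contrasts with smaller differences of 0.47 (SE 0.145, edgeR adjusted p = 0.0270) and 0.63 (SE 0.145, adjusted p = 0.00403). The Tpi1 call in controls was lost without C57BL/6J control replicate 3 (0.30, adjusted p = 0.247) and without BALB/c control replicate 6 (0.42, adjusted p = 0.0569).

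The steps that yield ATP and pyruvate followed the same direction. Pgk1, the phosphoglycerate kinase of the X chromosome, was 42.4 to 51.9 (median 49.0) CPM per kb in BALB/c controls and 65.7, 65.9 and 79.2 in C57BL/6J controls. Txnip libraries held 36.2 to 45.7 (median 45.2) and 110.4, 60.7 and 83.0 CPM per kb of Pgk1. The strains were separate, at 0.56 (SE 0.149, edgeR adjusted p = 0.0118) and 0.98 (SE 0.149, adjusted p = 5.75e-05). Pgam1, phosphoglycerate mutase, was 32.9 to 39.6 (median 33.4) in BALB/c controls and 46.4, 52.8 and 53.6 CPM per kb in C57BL/6J controls. Txnip libraries held 27.1 to 42.4 (median 35.6) and 64.9, 49.1 and 68.3 CPM per kb. The mutase was separate in both contrasts, at 0.56 (SE 0.136, edgeR adjusted p = 0.00610) and 0.77 (SE 0.136, adjusted p = 0.000317). Pkm, whose product makes pyruvate, was 380.1 to 489 (median 437) in BALB/c controls and 564, 588 and 669 CPM per kb in C57BL/6J controls. In Txnip cones Pkm was 391 to 455 (median 419) and 818, 516 and 727 CPM per kb. No Pkm value overlapped, at 0.47 (SE 0.131, edgeR adjusted p = 0.0161) and 0.72 (SE 0.130, adjusted p = 0.000455). Gm49759, a gene on the same strand, shares 15.3% of the exonic length of Pkm, and counts in that stretch went to both genes. Counting was without strand, and the same holds for 17.4% of the length of Pfkfb2 (shared with Gm29427), 16.1% of Pdha1 (Map3k15), 11.5% of Gpi1 (Gm26762) and 10.2% of Pfkm (Gm26513), while each other overlap covered at most 5.58% of a member. Without C57BL/6J control replicate 3 the calls of Pgk1 (0.46, adjusted p = 0.0907) and Pkm (0.39, adjusted p = 0.0930) in controls were lost.

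Enolase moved in opposite directions at its 2 isozymes. Eno1 was 82.3 to 106 (median 86.6) CPM per kb in BALB/c controls and 180.2, 170.3 and 198 in C57BL/6J controls. Txnip libraries held 78.1 to 97.3 (median 86.1) and 271, 150.2 and 196 CPM per kb. All C57BL/6J libraries lay above all BALB/c libraries, with 1.00 (SE 0.145, edgeR adjusted p = 3.81e-05) and 1.25 (SE 0.145, adjusted p = 2.04e-06). Eno2 was 172 to 251 (median 216) in BALB/c controls and 109, 159.9 and 156 CPM per kb in C57BL/6J controls. With Txnip it was at 228 to 278 (median 248) and 147, 129.9 and 169 CPM per kb. Eno2 was the only member called lower in both contrasts, with no overlap, at −0.59 (SE 0.150, edgeR adjusted p = 0.00868) and −0.74 (SE 0.151, adjusted p = 0.00147). Without C57BL/6J control replicate 1, which is rod-rich, the Eno2 difference in controls was −0.45 (adjusted p = 0.0600). Eno2 is also a marker of mature neurons, and ganglion cell markers, without overlap, and amacrine cell markers, with overlap, were lower in the same libraries. Eno3, the muscle enolase, which was not among the members, was lower as well, at 37.6 to 61.2 CPM per kb in BALB/c controls against 19.3, 11.5 and 23.4 in C57BL/6J controls (log2 difference −1.32, SE 0.224, edgeR adjusted p = 0.000213).

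Gapdh, the glyceraldehyde phosphate dehydrogenase that is widely used as a reference gene, and Eno1 have near-identical copies elsewhere in the genome whose counts differed between the strains. A copy was a stretch of at least 300 bases with at least 95% identity in a transcript over 1000000 bases away or on another chromosome. Gapdh had 77 such genes with counts. Their summed counts were 51.7 to 58.7% of the Gapdh counts in BALB/c controls and 50.5 to 57.5% in BALB/c Txnip libraries, against 10.2 to 11.4% and 10.05 to 11.5% in C57BL/6J libraries. The copy with the most counts, Gm13394 on chromosome 2, had 242 to 875 and 128 to 909 counts in BALB/c libraries and 0 to 3 and 0 to 4 in C57BL/6J libraries. For Eno1 there were 3 copies, of which Eno1b had the most counts, and the summed counts of the 3 were 19.98 to 25.8% and 21.0 to 26.7% of the Eno1 counts in BALB/c against 3.71 to 4.07% and 2.99 to 3.5% in C57BL/6J libraries. Gpi1 had 1 copy with counts, Gm1840, at 1.07 to 2.69% in BALB/c and 0.214 to 0.53% in C57BL/6J libraries. The reads of BALB/c had been aligned to the GRCm38 genome, which is that of C57BL/6J, and pairs that aligned to several places were not counted. The part of this in the values of Gapdh and Eno1 was not tested at the level of reads. When the counts of the copies were added to the member, Eno1 stayed higher in C57BL/6J cones, at 0.76 (edgeR adjusted p = 0.000815) and 0.99 (adjusted p = 3.96e-05), and Gpi1 at 0.74 and 0.75, while Gapdh turned from 0.36 (adjusted p = 0.234) and 0.29 (adjusted p = 0.358) to −0.11 (adjusted p = 0.762) and −0.18 (adjusted p = 0.607). Gapdh passed in neither form, and the number of members called stayed at 15 in each contrast.

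**Figure D4:**
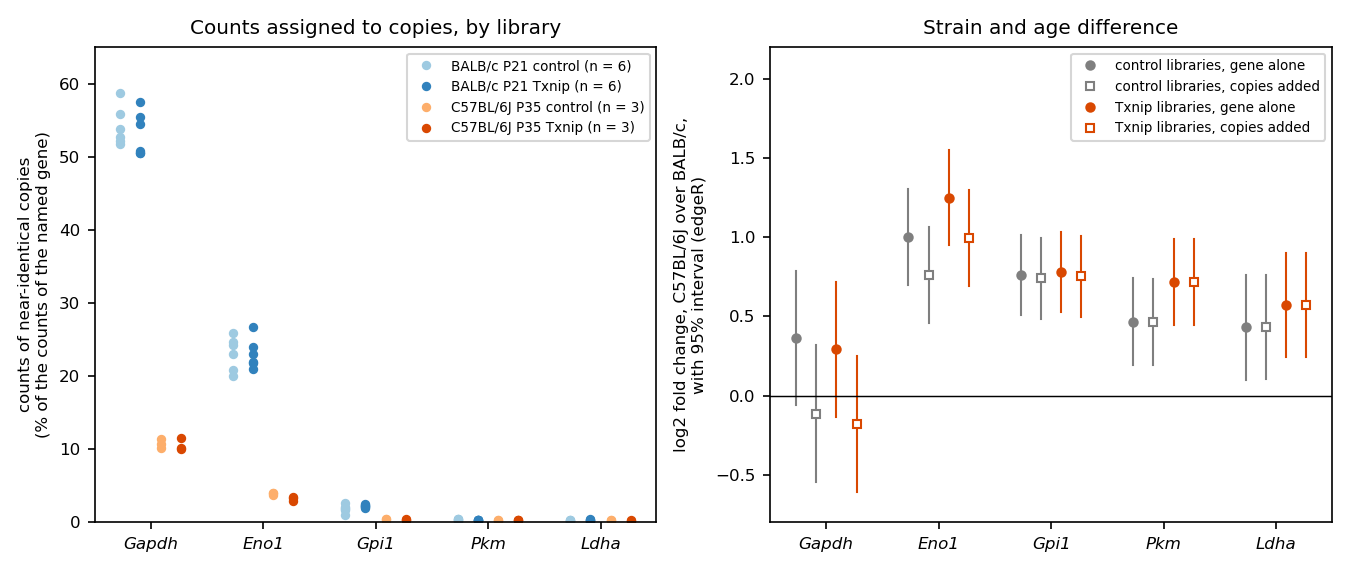
Counts in near-identical copies of Gapdh, Eno1 and Gpi1 as a percent of the counts of the gene, with 1 point per library, and the log2 difference between strains and ages with and without those counts. Summed counts of the copies are 50.5 to 58.7% of the Gapdh counts in BALB/c libraries and 10.05 to 11.5% in C57BL/6J ones, and adding them takes Gapdh across 0.

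Of the lactate dehydrogenases, Ldha favours the making of lactate and Ldhb its use. Ldha was 508 to 643 (median 596) CPM per kb in BALB/c controls and 787, 716 and 873 in C57BL/6J controls. In Txnip cones Ldha was 491 to 584 (median 542) in BALB/c and 1134, 558 and 705 CPM per kb in C57BL/6J. The control groups did not overlap and the Txnip groups did, through the rod-rich library. The log2 difference was 0.43 (SE 0.159, edgeR adjusted p = 0.0643) in control and 0.57 (SE 0.158, adjusted p = 0.0143) in Txnip cones, and it passed only in the latter. In control cones it passed in 5 of 29 alternative settings, the fit without the rod-rich libraries among them, with adjusted p from 0.00768 to 0.233 over all of them. Without C57BL/6J Txnip replicate 1 the difference in Txnip cones was 0.23 (adjusted p = 0.260). Ldhb was 41.1 to 82.0 (median 59.6) in BALB/c controls and 70.4, 51.3 and 78.9 CPM per kb in C57BL/6J controls. With Txnip, Ldhb was at 42.4 to 81.4 (median 66.2) and 115, 39.5 and 56.6 CPM per kb. Ldhb overlapped throughout, at 0.14 (SE 0.276, edgeR adjusted p = 0.779) and 0.11 (SE 0.277, adjusted p = 0.835).

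The pyruvate dehydrogenase kinases differed at 1 member. Pdk3 was 16.6 to 22.3 (median 18.8) CPM per kb in BALB/c controls and 24.2, 32.4 and 31.1 in C57BL/6J controls. In Txnip cones Pdk3 was 12.1 to 22.3 (median 18.5) and 35.0, 22.2 and 27.1 CPM per kb. The control groups were separate and the Txnip groups overlapped at the rod-rich library, with 0.63 (SE 0.17, edgeR adjusted p = 0.0125) and 0.60 (SE 0.171, adjusted p = 0.0181). The Pdk3 call was lost without C57BL/6J control replicate 2 (adjusted p = 0.0666) or 3 (adjusted p = 0.0652) in controls, and without C57BL/6J Txnip replicate 1 (adjusted p = 0.162) in Txnip cones. Pdk2 was 21.0 to 24.2 (median 22.3) in BALB/c controls and 23.2, 24.2 and 20.9 CPM per kb in C57BL/6J controls. Its Txnip libraries were at 18.2 to 28.8 (median 23.3) and 22.4, 23.1 and 21.8 CPM per kb. The log2 difference of Pdk2 was 0.01 (95% interval −0.27 to 0.29) in control and −0.05 (−0.33 to 0.23) in Txnip cones. Pdk1 was 0.582 to 1.59 (median 1.29) in BALB/c controls and 2.73, 0.414 and 0.713 CPM per kb in C57BL/6J controls. Pdk1 in Txnip libraries was at 0.598 to 2.05 (median 1.45) and 0.767, 2.12 and 0.712 CPM per kb. In both C57BL/6J groups the highest Pdk1 value was that of the rod-rich library, and the log2 difference in controls went from 0.03 (edgeR adjusted p = 0.978) to −1.14 (adjusted p = 0.0622) without those libraries. Pdk4, the kinase known from fasting muscle and liver, had 0 to 2 counts in each library. The subunits Pdha1, Pdhb, Dlat and Dld and the phosphatase Pdp1 had log2 differences from −0.35 to 0.06 in control and from −0.32 to 0.18 in Txnip cones, and 0 of these 5 passed in either contrast.

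In the TCA cycle Idh3b and Ogdh were called, and both calls changed with the settings. Idh3b, a subunit of the NAD-dependent isocitrate dehydrogenase, was 56.3 to 64.5 (median 58.6) CPM per kb in BALB/c controls and 87.8, 69.6 and 88.6 in C57BL/6J controls. In Txnip cones Idh3b was 53.7 to 66.6 (median 59.9) and 105, 63.2 and 72.8 CPM per kb. The control groups were separate and the Txnip groups overlapped, with 0.46 (SE 0.140, edgeR adjusted p = 0.0258) and 0.41 (SE 0.140, adjusted p = 0.0450), and the calls were lost in 8 and 19 of 29 alternative settings. Without C57BL/6J Txnip replicate 1 the Idh3b difference in Txnip cones was 0.17 (adjusted p = 0.437). The subunits Idh3a (−0.32, adjusted p = 0.229) and Idh3g (0.33, adjusted p = 0.124) did not pass in control cones. Ogdh, the first enzyme of the oxoglutarate dehydrogenase complex, was 56.8 to 81.7 (median 69.8) in BALB/c controls and 43.2, 59.7 and 53.7 CPM per kb in C57BL/6J controls. Its Txnip libraries were at 60.7 to 69.7 (median 67.6) and 60.2, 46.1 and 56.9 CPM per kb. The control groups overlapped and the Txnip groups did not, but the call was in controls, at −0.41 (SE 0.137, edgeR adjusted p = 0.0391), and not in Txnip cones, at −0.29 (SE 0.136, adjusted p = 0.157), and it was lost in 9 of 29 settings. Sucla2 was 29.7 to 43.3 (median 33.9) in BALB/c controls and 43.0, 34.1 and 53.9 CPM per kb in C57BL/6J controls. Sucla2 in Txnip libraries was at 25.3 to 43.8 (median 31.4) and 55.8, 30.6 and 37.5 CPM per kb, and with 0.32 (edgeR adjusted p = 0.261) and 0.34 (adjusted p = 0.245) it did not pass. Suclg2, its GDP-forming counterpart, had 8, 6 and 16 counts in C57BL/6J controls and 0, 2 and 0 in C57BL/6J Txnip libraries, beside 1 to 6 and 1 to 11 in BALB/c control and Txnip libraries. It was not tested because of its low counts.

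Summed over the members of a pathway, the glycolytic genes reached 2057 to 2350.5 CPM per kb (median 2222) in BALB/c controls and 3009, 3169.7 and 3732 in C57BL/6J controls. The Txnip libraries stood at 2175 to 2579 (median 2292) in BALB/c and 4259.7, 2878 and 3777 CPM per kb in C57BL/6J. The strains did not overlap in this sum. The sums of the pyruvate dehydrogenase genes (194 to 253 in BALB/c and 163 to 253 CPM per kb in C57BL/6J libraries) and of the TCA cycle genes (786 to 946 in BALB/c and 651 to 1260.2 in C57BL/6J libraries) overlapped. The lactate dehydrogenase sum was separate in controls, at 549 to 723 in BALB/c and 767 to 952 CPM per kb in C57BL/6J libraries. In Txnip libraries this sum overlapped, at 548 to 665 and 597 to 1250 CPM per kb. Abundant members weigh most in these sums. Aldoa and Pkm had means of 1003 and 538 CPM per kb in glycolysis, and the cytosolic Mdh1 had 309 in the TCA list. Of the 42 members tested, 14 lay above without overlap in control cones and 2 (Hk1 and Eno2) below, where 8.98% of all genes tested lay above and 9.66% below. In Txnip cones 11 lay above and 2 (Eno2 and Ogdh) below, against 8.2% and 9.73% of all genes.

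The other genes of these routes, taken from lists of 14 glycolytic isozymes, 19 pyruvate and TCA genes, 8 shuttle genes, 8 pentose phosphate genes and 7 regulators, held 46 genes tested. In control cones 2 of the 46 were called higher (4.35%) and 8 lower (17.4%), where 8.03% of all genes tested were higher and 9.52% lower. In Txnip cones 3 were higher (6.52%) and 6 lower (13.0%), against 8.24% and 9.38% of all genes. By list in control cones, of the 8 glycolytic isozymes tested 0 were higher and 2 lower, of 19 pyruvate and TCA genes 0 and 3, of 7 shuttle genes 1 and 1, of 6 pentose phosphate genes 0 and 1, and of 6 regulators 1 and 1. The largest falls were those of Me3, a mitochondrial malic enzyme, and of Hkdc1, a hexokinase-like gene. Me3 was at 3.33 to 4.88 CPM per kb in BALB/c and 1.03, 0.220 and 0.0569 in C57BL/6J controls (log2 difference −3.29, edgeR adjusted p = 0.000134). Hkdc1 was at 1.29 to 3.20 against 0.491, 0.558 and 0.486 CPM per kb (−2.24, adjusted p = 0.000143). Pck2, mitochondrial phosphoenolpyruvate carboxykinase, was at 0.870 to 1.54 against 0.60, 0.138 and 0.142 CPM per kb (−2.11, adjusted p = 0.0143). None of these 3 overlapped between the control groups. The called rises were Epas1, which encodes HIF2α, at 0.505 to 1.49 against 7.53, 1.55 and 1.57 CPM per kb (1.94, adjusted p = 0.0142), where the highest value was that of the rod-rich library, and Got2, the mitochondrial aspartate aminotransferase, at 17.5 to 22.7 against 29.8, 26.3 and 31.0 CPM per kb (0.47, adjusted p = 0.0106). The 1 regulator called lower in control cones was Hif1a, which encodes HIF1α, with a log2 difference of −0.65. In Txnip cones the counts of higher and lower genes by list were 0 and 2, 1 and 2, 1 and 1, 0 and 1, and 1 and 0 in the same order.

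The effect of Txnip asks whether cones given Txnip differ from control cones in the RNA levels of the members. With edgeR, 0 of 40 members tested passed in BALB/c cones and 0 of 40 in C57BL/6J cones, where 0.0166% and 0.0154% of all genes passed. These were Txnip and its antisense gene Gm15441, whose reads cannot be told apart without strand. With DESeq2 0 members passed in either strain. With no filter on low counts beyond 1 count, 1 member, Hk2, passed in BALB/c. At an unadjusted p under 0.05 there were 6 of 40 members in BALB/c (15.0%, against 11.4% of all genes) and 0 of 40 in C57BL/6J (against 0.748%). The 6 were all glycolytic: Pfkp 0.32 (95% interval 0.12 to 0.52, adjusted p = 0.197), Hk2 0.34 (0.02 to 0.65, adjusted p = 0.399), Gapdh 0.31 (0.03 to 0.59, adjusted p = 0.378), Pfkfb2 0.30 (0.02 to 0.58, adjusted p = 0.400), Eno2 0.22 (0.02 to 0.41, adjusted p = 0.370) and Hk1 −0.22 (−0.38 to −0.05, adjusted p = 0.276) on the log2 scale. Of the 40 members tested in each strain, 0 separated all Txnip from all control libraries in BALB/c (0.699% of all genes) and 0 in C57BL/6J (4.42% of all genes). In C57BL/6J cones the same 6 genes had log2 differences of 0.03, −0.01, 0.24, 0.08, 0.07 and −0.09 in that order, none past an unadjusted p of 0.05. BALB/c control replicates 4 and 5 were the lowest controls for Hk2 (167 and 262 CPM), Gapdh (274 and 269), Pfkfb2 (152 and 114) and Eno2 (808 and 860). For Pfkp and Hk1 they were not. These replicates also had the lowest shares of the ribosomal RNA locus in their group, at 6.07 and 6.00%. Their part in these effects was not tested.

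For the lactate dehydrogenases, the log2 effect of Txnip on Ldhb was 0.11 (95% interval −0.25 to 0.48, edgeR adjusted p = 0.851) in BALB/c and 0.06 (−0.73 to 0.86) in C57BL/6J cones, and on Ldha it was −0.13 (−0.29 to 0.03, adjusted p = 0.520) and 0.00 (−0.66 to 0.66). Pkm was at −0.07 (−0.22 to 0.08) and 0.17 (−0.41 to 0.75), and the kinases Pdk1, Pdk2 and Pdk3 at 0.17, 0.03 and −0.01 in BALB/c and −0.11, −0.03 and −0.06 in C57BL/6J cones. The precision differed between the strains. The biological coefficient of variation over all genes was 18.02% for the BALB/c fit and 34.3% for the C57BL/6J fit, and the median half-width of the members' 95% intervals was 0.21 and 0.55 on the log2 scale. In BALB/c 39 of 40 intervals lay within ±1 and 32 within ±0.5, so that for these members an effect beyond those sizes was outside the interval. In C57BL/6J 38 of 40 lay within ±1 and 4 within ±0.5. Within the C57BL/6J Txnip group replicate 1 was the highest for 24 of the 40 members and replicate 2 the lowest for 29, and within the controls replicate 3 was the highest for 24 and replicate 2 the lowest for 19. Of the libraries most often lowest, Txnip replicate 2 is rod-rich and control replicate 2 is not, and they had the highest shares of the ribosomal RNA locus, at 26.9% and 27.5% of counts. The rod-rich control replicate 1 was the lowest for 14 members. The part of either share in these values was not tested.

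The difference between the strains in the effect of Txnip, which is also the difference between the control and Txnip forms of the strain and age contrast, passed for 0 of 42 members with edgeR and with DESeq2, as for 0% of all 14751 genes (4.79% at an unadjusted p under 0.05). No member was under an unadjusted p of 0.05, and 3 were without the rod-rich libraries. The lowest p was that of Pgk1, which differed by 0.42 (95% interval −0.02 to 0.87, edgeR adjusted p = 1.00). Ldha differed by 0.14 (−0.33 to 0.61) and Ogdh by 0.13 (−0.27 to 0.52), so their calls in 1 of the contrasts were not shown to differ between control and Txnip cones.

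**Figure D5:**
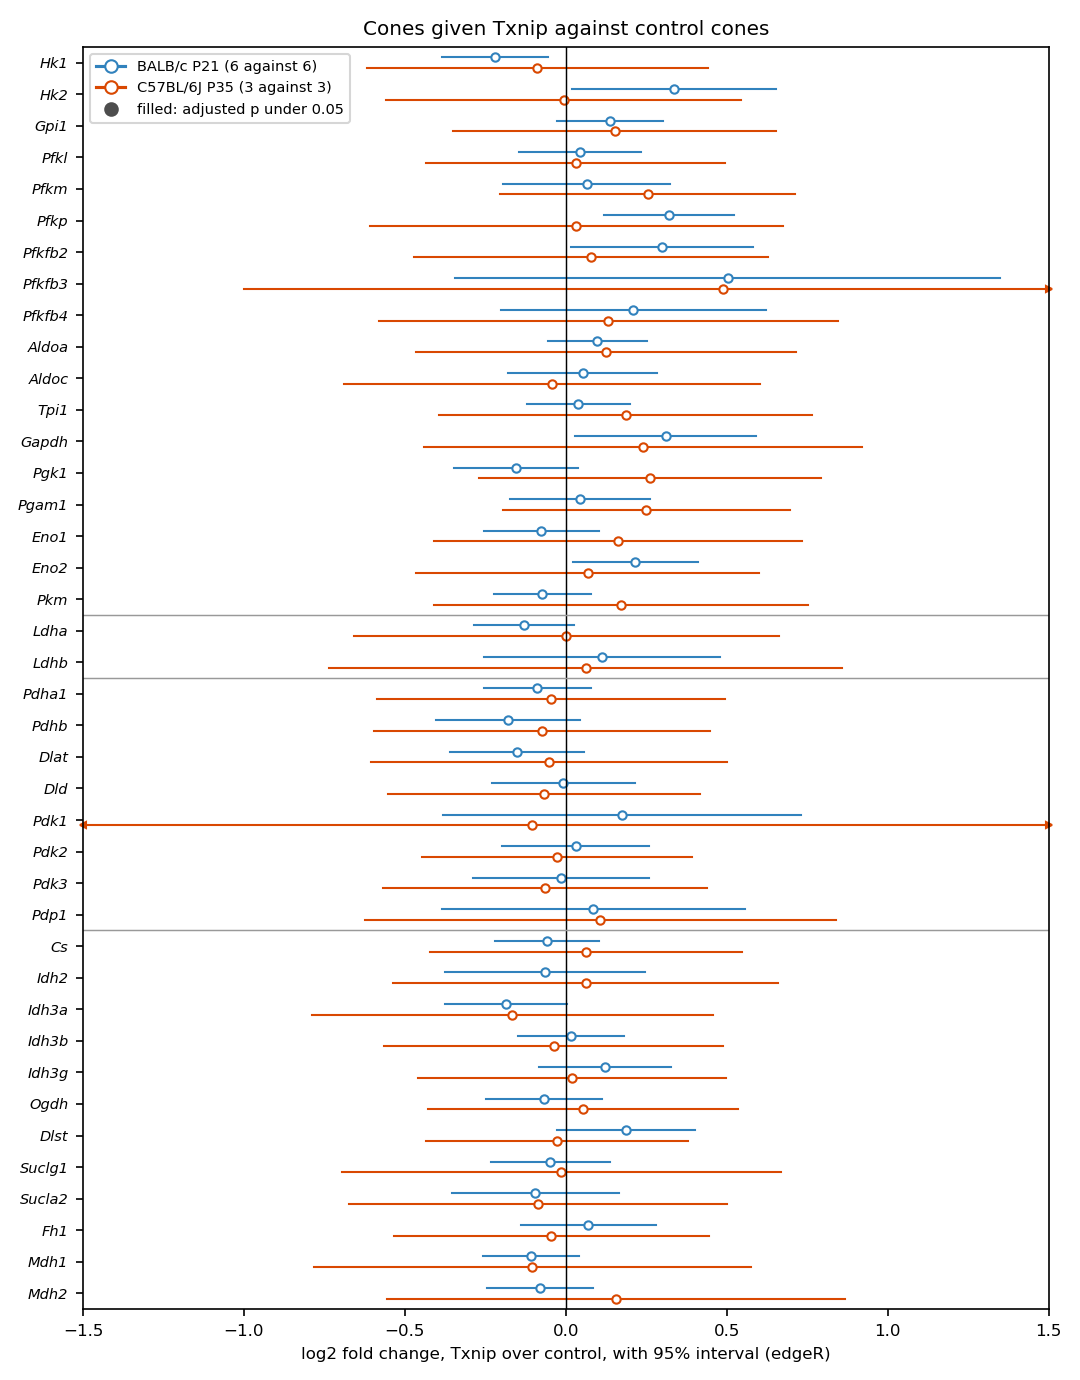
Log2 effect of Txnip on each of the 40 members tested, with its 95% interval from edgeR, in BALB/c (6 against 6 libraries) and C57BL/6J cones (3 against 3 libraries), where arrowheads mark intervals that run past the axis. Intervals are wider in C57BL/6J (median half-width 0.55) than in BALB/c (0.21), and 0 members passed the adjusted threshold in either strain.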

How the data were processed

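Cones were sorted from wildtype retinas and libraries were made with a modified Smart-Seq2 protocol. The authors aligned reads with STAR to GRCm38.p6, counted read pairs on exons with featureCounts 1.6.2 and the Ensembl 94 annotation, without strand and without pairs aligned to several places, and deposited raw counts for 54532 genes per library. Symbols were taken from the reference annotation, and 123 identifiers had none. The authors' tables of DESeq2 log2 fold changes and p-values, 1 per strain, were not used. Members and lists were chosen with earlier results of these data known. Counts were fitted in R 4.3.3 with edgeR 4.0.16: filterByExpr, TMM, glmQLFit and glmQLFTest, with Benjamini-Hochberg adjustment over all genes tested and a threshold of 0.05. The effect of Txnip was fitted in each strain, and the strain and age contrasts and their difference in 1 fit of all 4 groups, which assumes a common spread. Replicate numbers are those of the labels, and same-numbered control and Txnip libraries did not deviate together (r from −0.0969 to 0.142), so no block was used. Members described library by library are the main isozyme of each step, Hk1, Hk2, Ldha, Ldhb, Pkm, the Pdk kinases and every member called in any fit. Genes of the other lists are those called in a Txnip fit (0) and, in the control contrast, the called rises (2) and the 3 largest falls. Eno3 and Hif1a were chosen after their values were seen. Alternatives were DESeq2 1.42.0, its size factors in edgeR, other count filters, the ribosomal RNA locus and mitochondrial genes left out, the rod share as covariate, robust estimation, other sample sets, a threshold of 0.1, the replicate block, each library left out, and, added after seeing the data, the rod share without Sag, the rod-rich libraries left out, copies added and transcript lengths. Copies were searched with BLAST 2.17.0. The fits were tested on simulated data.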

Additional observations from a re-analysis of the deposited data

Results flagged for a closer look

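Pgam1 was at 72.5 CPM in BALB/c control replicate 1, while the other 5 libraries of that group were at 60.3 to 64.1 CPM. The gap to the nearest library was 0.688 of the range of the group, above the 95% limit of Dixon's test for 6 libraries. It was the only such value among 46 groups of 6 BALB/c libraries examined, where chance gives about 1 in 20. The Pgam1 difference between strains and ages passed under all alternatives, with or without that library. No other result met the rules for a closer look.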

How the results depend on the processing

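The number of members called ranged from 13 to 17 in control and from 14 to 17 in Txnip cones under the alternatives that kept all groups' replicates or removed the rod-rich libraries, and from 9 to 17 and from 14 to 17 when each library was left out in turn. The 9 came without C57BL/6J control replicate 3. For the effect of Txnip the count was 0 under all alternatives in C57BL/6J and for the difference between strains, and in BALB/c except that 1 member was called when genes with at least 1 count were kept. With the replicate number as a block, 0 members were called in BALB/c, in C57BL/6J and between strains. The main isozyme was kept at 7 to 9 of the 9 steps. Directions turned only for members that did not pass. Gapdh turned to −0.11 in control and −0.18 in Txnip cones with near-identical copies added. Pdk1 in controls turned to −0.84 with the rod share as covariate, −0.87 with the rod share without Sag and −1.14 without the rod-rich libraries, and ran from −1.14 to 0.42 when single libraries were left out. Pdk2 in controls turned to −0.00250 with DESeq2, −0.00331 with its size factors, −0.0190 with at least 10 counts in every library and −0.0180 without the rod-rich libraries, and ran from −0.0572 to 0.0715 with single libraries left out. In Txnip cones the same leave-one-out ranges were −0.45 to 0.38 for Ldhb, −0.95 to 0.00271 for Pdk1 and −0.14 to 0.00784 for Pdk2. The causes were not tested. The planned removal of libraries with a rod share over 0.5% could not give a value, since Sag put every library above it. At these depths Pdk4 and Suclg2 could not be tested, and in C57BL/6J the 95% interval of the effect of Txnip lay within ±0.5 on the log2 scale for 4 of 40 members.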
